A study of Mus musculus with 6 samples.

Results

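Interferon-stimulated genes are the genes that a cell switches on after an interferon has bound its receptor. A list of 43 such mouse genes was followed through skin exposed to bleomycin, with and without EHP-101 or ajulemic acid. It was divided by the interferon best known to induce each gene, with 30 targets of type I interferon and 13 targets of interferon gamma. The genes were found by symbol through their mouse gene numbers. All 43 were present among the 27179 genes of the count table, and all 43 were among the 17377 genes that passed the filter on low counts.

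RNA sequencing was done on skin of female BALB/c mice aged 6 to 8 weeks. Bleomycin, a DNA-damaging drug used in mice to produce a scleroderma-like fibrosis of the skin, was given in all groups but the control. The EHP-101 group (bleomycin and EHP-101, an oral formulation of a cannabidiol derivative) had 1 library, the ajulemic acid group (bleomycin and ajulemic acid, a synthetic cannabinoid) had 3, the group with bleomycin alone had 1, and the control group had 1. The labels give no dose, route, time or solvent for any of the agents, and they do not say whether each library came from a separate animal. The p-values below therefore reflect no more than how far these samples differ among themselves, and that may be technical. The spread comes from the 3 ajulemic acid libraries, with 2 residual degrees of freedom, and each single library is assumed to vary as they do. Every value against control rests on 1 control library, so a difference between groups and a difference of that library cannot be told apart.

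Type I interferons signal through a receptor shared by many cell types, the kinases Jak1 and Tyk2, and a complex with Stat2 and Irf9 that binds the interferon-stimulated response element of its target genes. Interferon gamma, made mainly by T cells and NK cells, signals through its own receptor to genes that carry the gamma-activated site. Many targets answer both interferons, so the division is one of emphasis. In skin these genes are part of the antiviral defence of keratinocytes, fibroblasts and infiltrating leukocytes, and a type I interferon signature is well known in human systemic sclerosis.

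The libraries held 14291592 to 19837682 counts, of which the 43 genes took 9978 in control skin and 14628 to 19928 in the bleomycin-exposed libraries. The smallest count of any listed gene in any library was 17. Mitochondrial ribosomal RNA took 17.3 to 26.5% of the counts. All 9 keratinocyte markers were detected in every library, as the labelled tissue requires. Markers of hepatocytes, which are not skin cells, summed to 724 CPM (counts scaled to library size, with TMM factors) in the EHP-101 library, 35.1 to 138 CPM with ajulemic acid, 810.3 CPM with bleomycin alone and 1129 CPM in control skin. Those of hair follicles summed to 4022 CPM with EHP-101, 4716, 269 and 10610 CPM with ajulemic acid, 399 CPM with bleomycin alone and 5420 CPM in control skin. Their part in the results was not tested. In bulk skin, fewer cells of a type and less RNA per cell cannot be told apart.

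Most of the genes were lowest in control skin, but by edgeR none passed the test against control. None passed between the bleomycin-exposed groups either, with or without a compound. In CPM, 39 of the 43 genes were higher in each of the 5 bleomycin-exposed libraries than in control, where 22.0% of all genes tested were. These were 29 of the 30 type I targets and 10 of the 13 interferon gamma targets. The exceptions were Ifi27, lower than control in all 5 libraries, and the interferon gamma targets Gbp2, Psmb9 and Cxcl9, which were above control in 2, 3 and 4 of the 5 libraries. At least 1.5-fold above control in all 5 libraries, a limit chosen after the values were seen, were 14 type I targets and 1 interferon gamma target, against 3.59% of all genes. The summed CPM of the 43 genes was 893 with EHP-101, 1004, 1142 and 772 with ajulemic acid, 948 with bleomycin alone and 656 in control skin.

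**Figure D1:**
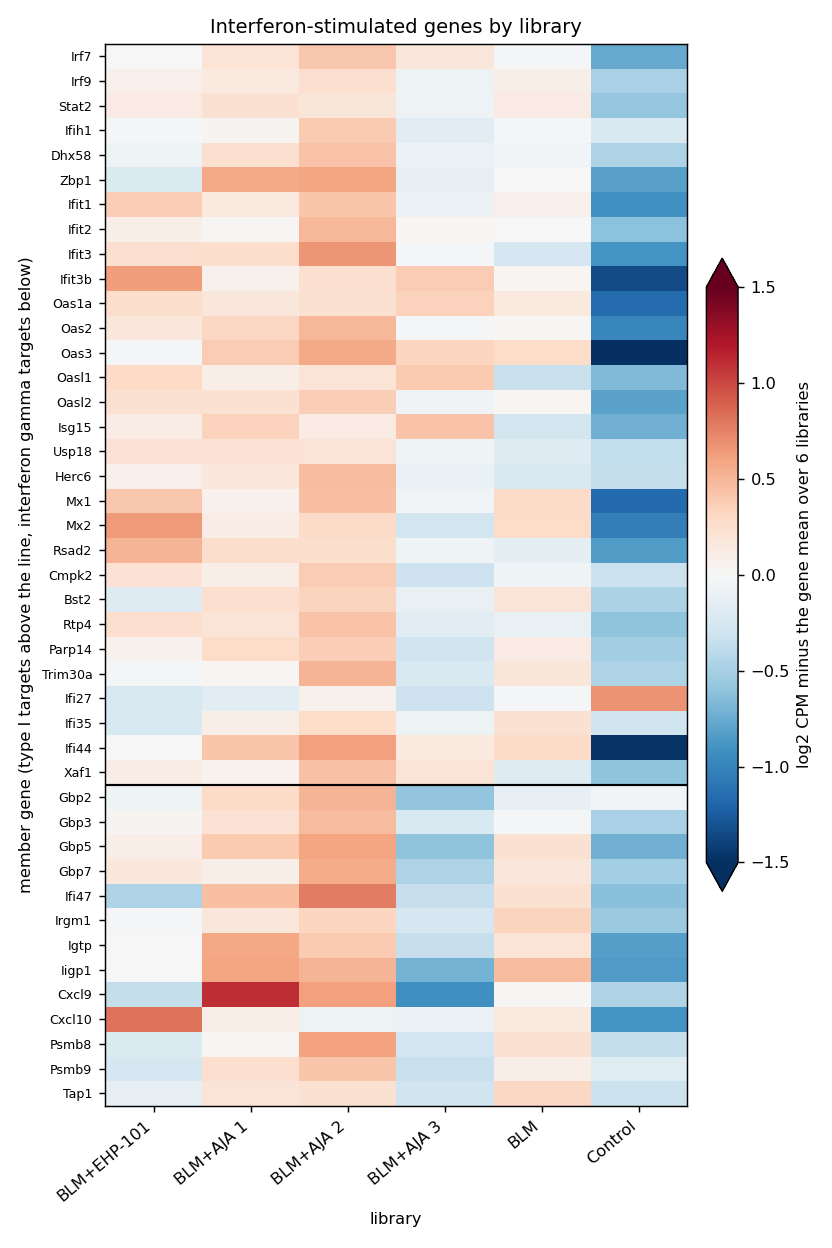
Heat map of the 43 genes (rows, type I targets above the line and interferon gamma targets below it) in the 6 libraries (columns). Colour gives log2 CPM minus the mean of that gene over the 6 libraries, and values beyond 1.5 take the end colours. The control column is the lowest of the 6 in 39 rows, and the row of Ifi27 runs the other way.

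No gene of the list passed an adjusted p of 0.05 by edgeR's quasi-likelihood test in any comparison, so the differences below are given as values. Averaged over the 3 bleomycin-exposed groups with equal weight, 42 of the 43 genes had a positive log2 fold change against control (all genes 50.2%), and the median was 0.71, with 0.74 for type I and 0.67 for interferon gamma targets and 0.00 for all genes tested. With p below 0.05 before adjustment there were 16 higher genes (all genes 3.89%) and 1 lower gene (all genes 3.92%). At least 2-fold higher were 12 (all genes 5.25%) and 2-fold lower 0 (all genes 5.21%). By role, the median log2 fold change was 1.15 for the OAS family, 1.09 for the IFIT proteins, 0.93 for the chemokines, 0.84 for the immunity-related GTPases, 0.71 for the transcription factors and 0.68 for the other antiviral effectors. It was lower for the guanylate-binding proteins at 0.61, the sensors at 0.51, the other type I targets at 0.51, the ISG15 system at 0.42 and antigen processing at 0.40.

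The core of the interferon response element can be seen in the DNA around the start of many of these genes. Promoter windows of 250 bases before to 50 bases after the transcription start were available for 33 of the 43 genes in RefSeq (GRCm38.p6). A core of the interferon-stimulated response element, GAAANNGAAA on either strand (TTTCNNTTTC on the other), was in the windows of 18 of these 33 genes (54.5%), 11 of 21 type I targets and 7 of 12 interferon gamma targets, against 3.99% of all 27025 genes with a window. The gamma-activated site TTCNNNGAA, which reads the same on both strands and can overlap the other motif, was in 4 of the 21 type I targets and 4 of the 12 interferon gamma targets, against 9.55% of all genes. A match is a run of letters and not a shown binding site. Some matches lay after the start, as did the only core of Ifih1, by 32 bases. The stretches below are the 60 bases around the response element core of 8 type I targets, shown because they include the genes with the largest differences from control (Oas3, Ifit3b) and a signalling factor (Stat2). Ifi44, whose difference from control was of similar size, held neither motif in its window, so it is not among them. Letters run 5′ to 3′ on the strand of the gene, and capitals mark the motif cores.
Isg15 (chr4:156200862-156200921, minus strand): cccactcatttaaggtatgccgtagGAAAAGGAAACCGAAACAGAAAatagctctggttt
Ifit1 (chr19:34640760-34640819, plus strand): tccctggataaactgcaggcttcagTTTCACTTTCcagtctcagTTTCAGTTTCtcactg
Ifit3 (chr19:34583348-34583407, plus strand): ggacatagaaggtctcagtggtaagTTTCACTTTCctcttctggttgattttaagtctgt
Ifit3b (chr19:34607744-34607803, plus strand): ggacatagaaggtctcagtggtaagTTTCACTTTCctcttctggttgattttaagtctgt
Oas3 (chr5:120777700-120777759, minus strand): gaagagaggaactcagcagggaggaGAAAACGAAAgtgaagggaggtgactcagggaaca
Oas1a (chr5:120907526-120907585, minus strand): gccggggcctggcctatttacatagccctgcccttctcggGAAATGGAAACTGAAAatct
Rsad2 (chr12:26456538-26456597, minus strand): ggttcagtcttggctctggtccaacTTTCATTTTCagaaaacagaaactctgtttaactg
Stat2 (chr10:128270251-128270310, plus strand): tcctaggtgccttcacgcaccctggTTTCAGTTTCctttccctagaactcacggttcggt
The first base of the core lay 20 bases before the start in Oas1a, 75 in Oas3, 78 in Isg15, 104 in Ifit1, 120 in Rsad2, 156 in Ifit3, 188 in Ifit3b and 222 in Stat2. The stretches of Ifit3 and Ifit3b are identical. Laid side by side at a single shift with no gaps allowed, their windows shared 201 of 268 bases (75.0%). A run of C that differs in length puts the bases after it out of register, so this share understates how alike the windows are.

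The same core stands before targets of interferon gamma. These 5 are shown because Gbp2 and Gbp7 are the most abundant guanylate-binding proteins of the list by CPM, because Igtp also holds a gamma-activated site within its stretch (its first run of capitals), and because Cxcl10 had the smallest p between the compounds. The window of Gbp7 holds 2 gamma-activated sites as well, both before the stretch shown.
Gbp2 (chr3:142620579-142620638, plus strand): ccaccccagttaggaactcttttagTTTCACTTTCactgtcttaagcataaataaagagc
Gbp7 (chr3:142530258-142530317, plus strand): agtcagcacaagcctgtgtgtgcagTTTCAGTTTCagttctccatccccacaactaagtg
Igtp (chr11:58199496-58199555, plus strand): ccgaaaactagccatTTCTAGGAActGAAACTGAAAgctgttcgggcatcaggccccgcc
Irgm1 (chr11:48871421-48871480, minus strand): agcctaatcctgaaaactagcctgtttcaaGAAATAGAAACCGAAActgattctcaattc
Cxcl10 (chr5:92349068-92349127, minus strand): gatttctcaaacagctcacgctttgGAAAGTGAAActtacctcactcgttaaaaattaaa
Here the core began 30 bases before the start in Irgm1, 34 in Igtp, 53 in Gbp7, 59 in Gbp2 and 213 in Cxcl10. Gbp2, whose promoter holds the element, is also among the 4 genes that were not above control in every bleomycin-exposed library.

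Among the transcription factors of the pathway, all 3 were above control in all 5 bleomycin-exposed libraries (all genes 22.0%). Such counts by role, here and below, are parts of the 39 genes counted above and rest on the same control library. Stat2, a signalling factor of the type I pathway (gene 20847, chromosome 10), was at 48.02 CPM in the EHP-101 library, 51.8, 50.2 and 41.7 CPM with ajulemic acid, 48.2 CPM with bleomycin alone and 29.4 CPM in control skin. Irf9, which brings the complex with Stat2 to DNA (gene 16391), was at 41.1 CPM in the EHP-101 library, 43.2, 46.7 and 36.96 CPM with ajulemic acid, 41.5 CPM with bleomycin alone and 27.9 CPM in control skin. Both lay within the range of the ajulemic acid libraries in the EHP-101 and the bleomycin-only library, and below that range in control. Irf7, which amplifies type I interferon production and was added after its values were seen, was at 32.3 CPM in the EHP-101 library, 37.4, 42.9 and 36.3 CPM with ajulemic acid, 31.8 CPM with bleomycin alone and 19.1 CPM in control skin. Its log2 fold change against control was 0.76 (SE 0.23) with EHP-101, 1.03 (SE 0.20) with ajulemic acid and 0.74 (SE 0.23) with bleomycin alone, with adjusted p = 0.24 in edgeR for ajulemic acid.

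The 3 sensors were also above control in all 5 libraries (all genes 22.0%), by less in Ifih1 than in Zbp1. Ifih1, the MDA5 sensor of long double-stranded RNA, was at 49.98 CPM in the EHP-101 library, 52.4, 66.96 and 45.2 CPM with ajulemic acid, 50.1 CPM with bleomycin alone and 43.3 CPM in control skin. Its control value was the lowest of the 6 but within 2 CPM of the lowest ajulemic acid library. Zbp1, which senses Z-form nucleic acids and can trigger necroptosis, was at 7.44 CPM in the EHP-101 library, 12.96, 13.1 and 7.93 CPM with ajulemic acid, 8.599 CPM with bleomycin alone and 4.86 CPM in control skin. The first and second ajulemic acid libraries stood above the other 4 in this gene. Dhx58, the LGP2 regulator of RNA sensing, had a log2 fold change of 0.51 (SE 0.31) for the bleomycin-exposed groups together against control.

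The IFIT proteins, which bind viral RNA and block its translation, were among the genes with the larger differences. The 4 genes stand side by side on chromosome 19 (34550694 to 34650009). Ifit2 was at 20.3 CPM in the EHP-101 library, 19.1, 26.7 and 19.3 CPM with ajulemic acid, 18.8 CPM with bleomycin alone and 12.3 CPM in control skin. Ifit1, whose promoter stretch above holds the core 2 times, was at 18.1 CPM in the EHP-101 library, 15.5, 18.7 and 13.2 CPM with ajulemic acid, 14.8 CPM with bleomycin alone and 7.36 CPM in control skin. In both genes control was lowest and all 5 bleomycin-exposed libraries were at least 1.5-fold above it (all genes 3.59%). Ifit3 was at 8.91 CPM in the EHP-101 library, 9.07, 11.98 and 7.38 CPM with ajulemic acid, 6.29 CPM with bleomycin alone and 3.94 CPM in control skin. Its close copy Ifit3b was at 5.43 CPM in the EHP-101 library, 3.61, 4.13 and 4.54 CPM with ajulemic acid, 3.53 CPM with bleomycin alone and 1.25 CPM in control skin. Ifit3b had the smallest p of the list for EHP-101 against control, with a log2 fold change of 2.11 (SE 0.41) and adjusted p = 0.619 by edgeR, and its control value rested on 19 counts (95% Poisson interval 0.752 to 1.95 CPM, counting error only). Of the strings of 50 bases in their transcripts, 51.2% of those of Ifit3 and 45.0% of those of Ifit3b also occur in another gene, so with reads of 50 bp the split of counts between the pair is uncertain.

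The OAS family makes the oligoadenylates that activate the antiviral nuclease RNase L. All 5 genes were above control in all 5 bleomycin-exposed libraries (all genes 22.0%). Oas3 (gene 246727; mm10 chromosome 5, 120753098-120777659) was at 9.89 CPM in the EHP-101 library, 13.2, 15.02 and 12.6 CPM with ajulemic acid, 12.2 CPM with bleomycin alone and 3.42 CPM in control skin. Its ajulemic acid libraries averaged 13.6 ± 1.25 CPM (SD, n = 3), and the 95% Poisson interval in control was 2.55 to 4.48 CPM. Control was below the lowest bleomycin-exposed library, that with EHP-101, and the ajulemic acid libraries were the 3 highest. Oas3 had the smallest p of the list for ajulemic acid against control, at a log2 fold change of 1.99 (SE 0.27) and adjusted p = 0.113 by edgeR, and for bleomycin alone against control, at 1.83 (SE 0.30) and adjusted p = 0.434. With EHP-101 its log2 fold change against control was 1.53 (SE 0.30), with adjusted p = 0.619. Under DESeq2 it passed for ajulemic acid (adjusted p = 0.000366) and for bleomycin alone (adjusted p = 0.0321) against control.

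Oasl2, an OAS-like protein, was at 23.7 CPM in the EHP-101 library, 23.6, 26.1 and 19.5 CPM with ajulemic acid, 20.7 CPM with bleomycin alone and 11.5 CPM in control skin. Oas2 was at 21.5 CPM in the EHP-101 library, 23.8, 27.2 and 18.9 CPM with ajulemic acid, 19.3 CPM with bleomycin alone and 9.59 CPM in control skin. Both were about level across the bleomycin-exposed groups, with the third ajulemic acid library the lowest of them. Oasl1, which in mice restrains translation of Irf7, had a log2 fold change of 0.65 (SE 0.35) for EHP-101 and 0.59 (SE 0.30) for ajulemic acid against bleomycin alone, the largest of the family in both, and neither passed. Oas1a, named after its values were seen, was at 6.59 CPM in the EHP-101 library, 6.205, 6.42 and 6.98 CPM with ajulemic acid, 6.096 CPM with bleomycin alone and 2.37 CPM in control skin. Its count is uncertain, since 57.6% of its strings of 50 bases also occur in Oas1g or Oas1b.

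The ISG15 system tags proteins with the ubiquitin-like Isg15, and its 3 genes were above control in all 5 libraries (all genes 22.0%). Herc6, the ligase that attaches Isg15 in mice, was at 16.4 CPM in the EHP-101 library, 17.4, 21.4 and 14.5 CPM with ajulemic acid, 13.2 CPM with bleomycin alone and 12.1 CPM in control skin. Usp18, which removes Isg15 and also damps the type I receptor, was at 10.7 CPM in the EHP-101 library, 10.7, 10.5 and 8.83 CPM with ajulemic acid, 8.02 CPM with bleomycin alone and 7.096 CPM in control skin. Bleomycin alone was the lowest bleomycin-exposed library in both, less than 1.5-fold above control. Isg15 itself (gene 100038882) was at 6.96 CPM in the EHP-101 library, 8.18, 6.99 and 8.73 CPM with ajulemic acid, 5.26 CPM with bleomycin alone and 3.81 CPM in control skin, with an ajulemic acid mean of 7.97 ± 0.887 CPM (SD, n = 3). It had the smallest p of the list for ajulemic acid against bleomycin alone, with a log2 fold change of 0.60 (SE 0.28), a 95% interval of -0.13 to 1.32 and adjusted p = 0.998 by edgeR. All 3 ajulemic acid libraries were above bleomycin alone in Isg15, Usp18 and Herc6 (all genes 22.9%), and so was the EHP-101 library. Bleomycin alone is a single library here.

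Of the other antiviral effectors, all 8 were above control in all 5 libraries (all genes 22.0%). Parp14, a mono-ADP-ribosyltransferase and the most abundant of them by CPM, was at 90.6 CPM in the EHP-101 library, 105, 112 and 70.3 CPM with ajulemic acid, 94.01 CPM with bleomycin alone and 60.1 CPM in control skin. Trim30a, a mouse ubiquitin ligase that restrains Toll-like receptor signalling, was at 26.2 CPM in the EHP-101 library, 27.4, 38.2 and 22.9 CPM with ajulemic acid, 30.3 CPM with bleomycin alone and 19.4 CPM in control skin. In both the third ajulemic acid library was the lowest bleomycin-exposed value and the second the highest. Rtp4, an interferon-induced antiviral protein, was at 12.3 CPM in the EHP-101 library, 11.7, 13.9 and 9.18 CPM with ajulemic acid, 9.497 CPM with bleomycin alone and 6.702 CPM in control skin. Rsad2, or viperin, which makes a chain-terminating nucleotide, was at 13.2 CPM in the EHP-101 library, 11.1, 11.1 and 8.78 CPM with ajulemic acid, 8.41 CPM with bleomycin alone and 5.06 CPM in control skin. It had the smallest p of the list for EHP-101 against bleomycin alone, with a log2 fold change of 0.66 (SE 0.32), a 95% interval of -0.17 to 1.48 and adjusted p = 0.9998 by edgeR. Cmpk2, a nucleotide kinase whose gene neighbours Rsad2 on chromosome 12, had a log2 fold change of 0.28 (SE 0.43) in the same comparison.

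Mx1 and Mx2, dynamin-like GTPases that act on viral nucleocapsids, were added after their values were seen because they differed most from control among these effectors. Mx1 was at 10.9 CPM in the EHP-101 library, 8.59, 11.3 and 7.93 CPM with ajulemic acid, 10.1 CPM with bleomycin alone and 3.55 CPM in control skin. Mx2 was at 9.21 CPM in the EHP-101 library, 6.34, 7.17 and 4.79 CPM with ajulemic acid, 7.12 CPM with bleomycin alone and 2.76 CPM in control skin. Laboratory strains such as BALB/c are known to carry a defective Mx1, so these values speak of its RNA only. In both genes all 5 bleomycin-exposed libraries lay above control (all genes 22.0%). The log2 fold change with ajulemic acid against control was 1.38 (SE 0.33) for Mx1 and 1.14 (SE 0.36) for Mx2. By edgeR these had adjusted p = 0.352 and 0.55.

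The remaining type I targets held values on both sides of control. Ifi44, a cytoplasmic protein of incompletely known function, was at 18.8 CPM in the EHP-101 library, 25.3, 29.01 and 20.8 CPM with ajulemic acid, 23.1 CPM with bleomycin alone and 6.702 CPM in control skin. Its ajulemic acid mean was 25.03 ± 4.11 CPM (SD, n = 3), and the 95% Poisson interval in control was 5.46 to 8.14 CPM. Control was below the lowest bleomycin-exposed library, and the value with bleomycin alone lay inside the range of the ajulemic acid libraries. The log2 fold change against control was 1.49 (SE 0.32) with EHP-101, 1.90 (SE 0.29) with ajulemic acid and 1.78 (SE 0.32) with bleomycin alone, with edgeR adjusted p = 0.676, 0.137 and 0.434 in that order. DESeq2 put the ajulemic acid and bleomycin-only comparisons at adjusted p = 0.000195 and 0.0194.

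Ifi27, a small hydrophobic protein of mitochondria and the nuclear envelope, was at 52.3 CPM in the EHP-101 library, 54.8, 64.4 and 49.7 CPM with ajulemic acid, 60.8 CPM with bleomycin alone and 98.2 CPM in control skin. Its ajulemic acid mean was 56.3 ± 7.499 CPM (SD, n = 3). Control was the highest of the 6 libraries, and Ifi27 was the only gene of the list at a lower level than control in all 5 others. The log2 fold change of the bleomycin-exposed groups together was -0.80 (SE 0.19), with adjusted p = 0.379 by edgeR. Its relative Ifi27l2a, from the list of other interferon-induced genes and named after its values were seen, was at 100.4 CPM in the EHP-101 library, 71.3, 105 and 54.7 CPM with ajulemic acid, 61.3 CPM with bleomycin alone and 113 CPM in control skin. It too was highest in control, although the second ajulemic acid library and the EHP-101 library came within 13 CPM of it. By CPM per kilobase, the scale that allows genes to be compared, Ifi27 was the most abundant gene of the list at a mean of 60.2 over the 6 libraries, followed by Tap1 at 26.9 and Psmb8 at 26.8, with Cxcl9 the least abundant at 0.692.

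**Figure D2:**
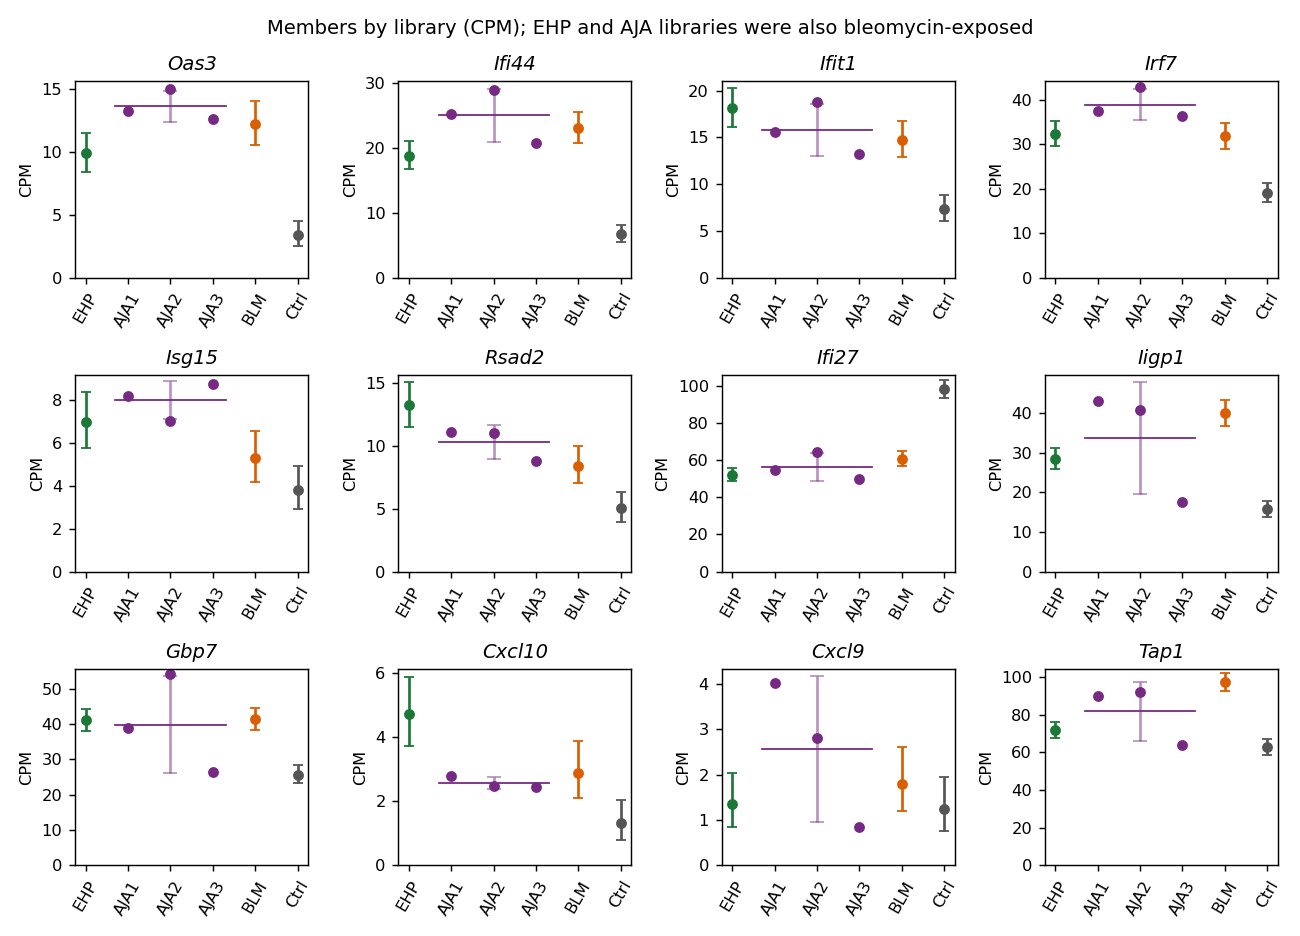
CPM of 12 genes of the list by library, on axes from 0, with EHP-101 left, then the 3 ajulemic acid libraries, bleomycin alone and control (Ctrl). Bars on single libraries are 95% Poisson intervals for counting error only, and the line and bar over the ajulemic acid libraries are their mean and SD (n = 3). Control is lowest for Oas3 and Ifi44 at 3.42 and 6.70 CPM and highest for Ifi27 at 98.2 CPM, and the ajulemic acid libraries spread widely for Iigp1 and Cxcl9.

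Targets of interferon gamma were less even among the ajulemic acid libraries. The guanylate-binding proteins attack the vacuoles of intracellular pathogens, and the 4 listed genes lie together on chromosome 3 (142496934 to 142638008). Gbp7 was at 41.1 CPM in the EHP-101 library, 38.9, 54.2 and 26.6 CPM with ajulemic acid, 41.4 CPM with bleomycin alone and 25.7 CPM in control skin. Gbp2 was at 24.2 CPM in the EHP-101 library, 30.96, 36.1 and 16.8 CPM with ajulemic acid, 23.2 CPM with bleomycin alone and 24.6 CPM in control skin. In Gbp2 control lay inside the range of the ajulemic acid libraries and above the EHP-101 and bleomycin-only libraries, and the log2 fold change of the bleomycin-exposed groups together was 0.02 (SE 0.44). Gbp3 and Gbp5 had log2 fold changes of 0.56 (SE 0.33) and 0.93 (SE 0.55) on the same comparison.

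The immunity-related GTPases, which act on the same vacuoles, were all 4 above control in all 5 libraries (all genes 22.0%). Iigp1, an effector of this family (gene 60440), was at 28.4 CPM in the EHP-101 library, 43.2, 40.8 and 17.5 CPM with ajulemic acid, 39.98 CPM with bleomycin alone and 15.8 CPM in control skin. Its ajulemic acid mean was 33.8 ± 14.2 CPM (SD, n = 3), and the third ajulemic acid library came close to control. Irgm1, a regulator of the family, was at 24.6 CPM in the EHP-101 library, 28.1, 31.3 and 20.9 CPM with ajulemic acid, 31.5 CPM with bleomycin alone and 16.95 CPM in control skin. In both genes the EHP-101 library was below bleomycin alone, with log2 fold changes of -0.49 (SE 0.66) for Iigp1 and -0.36 (SE 0.34) for Irgm1 (adjusted p = 0.9998 in edgeR for each). Ifi47, another member of the family named after its values were seen, was at 6.41 CPM in the EHP-101 library, 12.2, 15.2 and 6.98 CPM with ajulemic acid, 10.5 CPM with bleomycin alone and 5.72 CPM in control skin.

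Cxcl9 and Cxcl10 draw T cells and NK cells through the receptor Cxcr3. Cxcl9 was at 1.34 CPM in the EHP-101 library, 4.02, 2.81 and 0.848 CPM with ajulemic acid, 1.797 CPM with bleomycin alone and 1.25 CPM in control skin. The third ajulemic acid library was below control and the first was more than 4-fold above the third, so this gene varied most within the group. Cxcl10, which type I interferon also induces, was at 4.699 CPM in the EHP-101 library, 2.796, 2.47 and 2.44 CPM with ajulemic acid, 2.89 CPM with bleomycin alone and 1.31 CPM in control skin. Its ajulemic acid mean was 2.57 ± 0.197 CPM (SD, n = 3), below the EHP-101 value, whose 95% Poisson interval was 3.71 to 5.87 CPM. Cxcl10 had the smallest p of the list for ajulemic acid against EHP-101, with a log2 fold change of -0.87 (SE 0.31), a 95% interval of -1.67 to -0.08 and adjusted p = 0.9999 by edgeR.

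Antigen processing had the smallest median of all roles, 0.40. Tap1, which carries peptides into the endoplasmic reticulum, was at 71.7 CPM in the EHP-101 library, 89.8, 91.8 and 63.7 CPM with ajulemic acid, 97.2 CPM with bleomycin alone and 62.7 CPM in control skin. The immunoproteasome subunit Psmb8 was at 27.6 CPM in the EHP-101 library, 32.1, 48.4 and 26.1 CPM with ajulemic acid, 37.3 CPM with bleomycin alone and 24.8 CPM in control skin. In both genes the third ajulemic acid library came within 2 CPM of control, and the EHP-101 library lay below bleomycin alone. Psmb9, the other subunit, had a log2 fold change of 0.18 (SE 0.35) for the bleomycin-exposed groups together, the smallest of this role. The 3 genes lie next to each other on chromosome 17 (34182099 to 34201454).

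Each bleomycin-exposed group was then set against control on its own. These 3 comparisons share the control library, so their values are given side by side and are not independent. With EHP-101, 40 of the 43 genes were above control by log2 fold change (all genes 50.1%), 15 were higher (all genes 2.92%) and 1 lower (all genes 1.71%) with p below 0.05 before adjustment, and 12 were at least 2-fold higher (all genes 5.46%) and 0 lower (all genes 4.58%). With ajulemic acid, 42 were above control (all genes 54.9%), 20 were higher (all genes 3.02%) and 1 lower (all genes 4.10%) with p below 0.05 before adjustment, and 18 were at least 2-fold higher (all genes 4.41%) and 0 lower (all genes 4.15%). With bleomycin alone, 41 were above control (all genes 49.5%), 13 were higher (all genes 4.70%) and 1 lower (all genes 2.10%) with p below 0.05 before adjustment, and 11 were at least 2-fold higher (all genes 7.75%) and 0 lower (all genes 7.10%). The 1 lower gene was Ifi27 each time. Adjusted p in edgeR passed for 0 of the 43 genes in each of them (0.00% of all genes higher in each, and 0.0345% lower with ajulemic acid). DESeq2 passed Oas3 and Ifi44 with ajulemic acid and with bleomycin alone and none with EHP-101, and limma passed none. Over all 17377 genes tested, DESeq2 passed 276 with ajulemic acid, 165 with bleomycin alone and 120 with EHP-101.

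The median log2 fold change of type I targets was 0.75 with EHP-101, 0.90 with ajulemic acid and 0.66 with bleomycin alone, against medians of all genes within 0.04 of 0. That of interferon gamma targets was 0.52 with EHP-101, 0.67 with ajulemic acid and 0.69 with bleomycin alone. The 95% interval of the log2 fold change held 0 for 27 of the 43 genes with EHP-101, 22 with ajulemic acid and 29 with bleomycin alone. Without the third ajulemic acid library, ajulemic acid against control passed at the adjusted level for Oas3, Ifi44, Oas2 and Iigp1, and 33 genes were higher with p below 0.05 before adjustment (all genes 6.285%, and 3.02% with all libraries). In that fit 367 genes passed over the whole table, against 6 with all libraries. Without the first there were 7 such genes (all genes 1.13%), and no gene of the list passed. With bleomycin alone against control the genes higher at that level numbered 13 with all libraries (all genes 4.70%), 3 without the first ajulemic acid library (2.20%) and 19 without the third (7.255%), when Ifi44 passed (adjusted p = 0.0391 by edgeR). With EHP-101 against control they were 15 with all libraries (all genes 2.92%) and 9 without the first (1.52%). For the 3 groups together they were 16 with all (all genes 3.89%), 10 without the first (1.82%) and 29 without the third (6.50%).

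The compounds were compared with bleomycin alone, and with each other, for the same 43 genes. With EHP-101 against bleomycin alone, 18 of the 30 type I targets had positive and 10 of the 13 interferon gamma targets negative log2 fold changes, and none passed. Of the 43 genes, 21 had a positive log2 fold change with EHP-101 (all genes 50.0%), 0 had an unadjusted edgeR p below 0.05 (all genes 0.575% higher and 1.32% lower), and 0 were at least 2-fold higher (all genes 5.26%) or lower (all genes 4.02%). Neither DESeq2 nor limma passed a gene of the list. The median was 0.11 for type I and -0.35 for interferon gamma targets. Single libraries stand on both sides, so this comparison has no replicate of its own.

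With ajulemic acid against bleomycin alone, 29 of the 43 genes had a positive log2 fold change (all genes 52.8%), 0 had an unadjusted edgeR p below 0.05 (all genes 0.622% higher and 3.21% lower) and 0 were at least 2-fold higher (all genes 4.35%) or lower (all genes 3.94%). DESeq2 and limma passed none. The median was 0.16 for type I and -0.02 for interferon gamma targets. All 3 ajulemic acid libraries were above bleomycin alone in 12 genes, all type I targets (all genes 22.9%), and below it in 3, all interferon gamma targets (all genes 24.6%). The median over the 43 genes was 0.13, but -0.01 without the second ajulemic acid library and 0.25 without the third. Positive genes numbered 21 without the second (all genes 51.0%) and 36 without the third (53.7%). Without the second, 1 gene, Isg15, was higher with p below 0.05 before adjustment (all genes 7.57%), with adjusted p = 0.375 by edgeR. The 95% intervals of all 43 genes held 0 in this comparison and in that of EHP-101 with bleomycin alone, which does not show that the groups were alike.

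Ajulemic acid and EHP-101 are both cannabinoid-derived compounds, and their doses and times are not in the labels, so their values stand side by side without being matched. With ajulemic acid against EHP-101, 29 of the 43 genes had a positive log2 fold change (all genes 54.5%), 0 were higher (all genes 0.397%) and 1, Cxcl10, was lower (all genes 1.97%) with an unadjusted edgeR p below 0.05. At least 2-fold higher were 0 (all genes 1.81%), and at least 2-fold lower also 0 (all genes 2.87%). None passed by DESeq2 or limma. The median was 0.09 for type I and 0.20 for interferon gamma targets, and over all 43 genes 0.12, or -0.05 without the second ajulemic acid library and 0.25 without the third. Positive genes numbered 15 without the second (all genes 51.3%) and 34 without the third (49.4%). Without the third, Ifi47, Iigp1, Zbp1 and Cxcl9 were higher with p below 0.05 before adjustment (all genes 2.48%) and 0 were lower (all genes 2.52%), and the smallest adjusted p of these 4 was 0.506 by edgeR. All 3 ajulemic acid libraries were above EHP-101 in 8 genes (all genes 19.8%) and below it in 5 (all genes 18.3%).

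**Figure D3:**
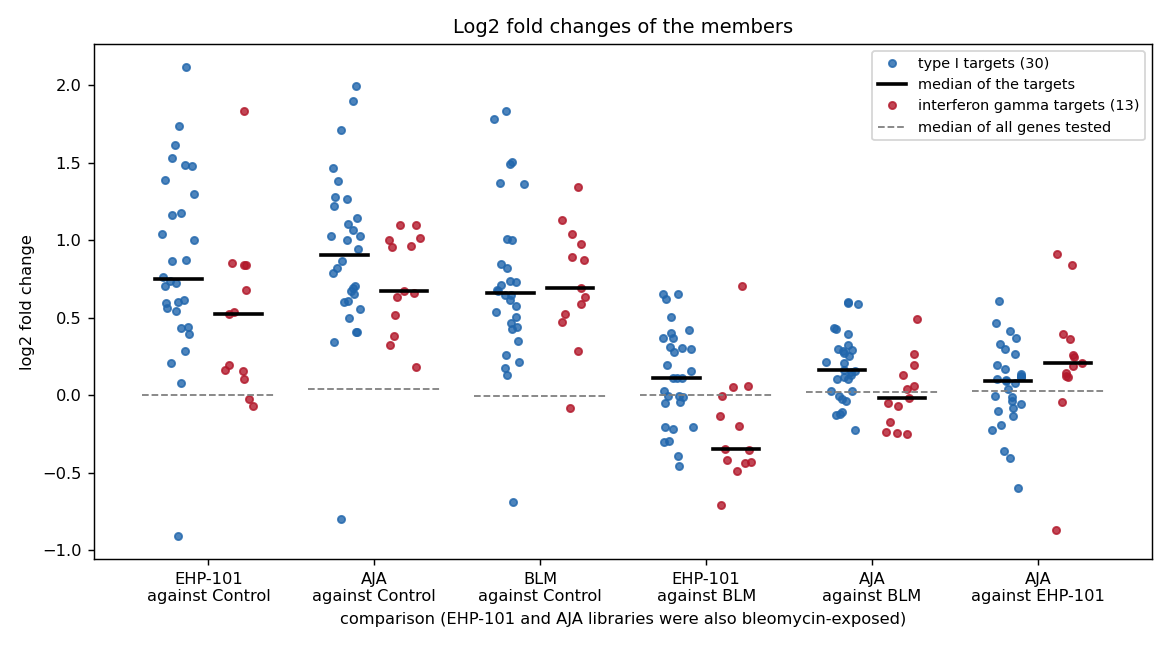
Log2 fold changes of the 43 genes in 6 comparisons (type I targets left and interferon gamma targets right in each), with the median of each set as a black line and the median of all genes tested as a dashed line. In the 3 comparisons with control the type I medians are 0.75, 0.90 and 0.66, and in the 3 comparisons between bleomycin-exposed groups they are 0.11, 0.16 and 0.09. Each point is a fitted value without its error, and no point passed an adjusted p of 0.05.

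The 3 ajulemic acid libraries, the only replicates, showed how far these genes varied within 1 condition. The SD of log2 CPM over them had a median of 0.24 for type I targets, 0.49 for interferon gamma targets and 0.23 for all genes tested. It was largest for Cxcl9 and reached at most 0.41 among type I targets. Of the 5 bleomycin-exposed libraries, the second ajulemic acid library was the highest in 29 of the 43 genes (all genes 24.7%), and the third was the lowest in 26 (all genes 26.5%), 12 of them among the 13 interferon gamma targets. Bleomycin alone was the lowest in 11 genes (all genes 19.6%), all of them type I targets.

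Markers of T and NK cells, dendritic cells and macrophages were ordered in a similar way over the ajulemic acid libraries. By median, those of fibroblasts, B cells, neutrophils and skeletal muscle were also highest in the second and lowest in the third. The order was thus not particular to the first lists, and those of keratinocytes and endothelium were highest in the first library. In medians of log2 CPM centred on each gene, interferon gamma targets were at -0.02 with EHP-101, 0.25, 0.51 and -0.34 with ajulemic acid, 0.20 with bleomycin alone and -0.51 in control skin. The 19 T and NK cell markers were at -0.24 with EHP-101, 0.04, 0.59 and -0.51 with ajulemic acid, 0.35 with bleomycin alone and -0.12 in control skin. Their summed CPM was 19.95 with EHP-101, 23.9, 36.4 and 15.8 with ajulemic acid, 28.6 with bleomycin alone and 19.5 in control skin. Both lists were highest in the second ajulemic acid library, but control was the lowest library in the interferon gamma targets and not in the T and NK cell markers. The 9 dendritic cell markers were at -0.20 with EHP-101, 0.02, 0.43 and -0.54 with ajulemic acid, 0.52 with bleomycin alone and -0.30 in control skin. Their summed CPM was 40.95 with EHP-101, 29.8 to 63.3 with ajulemic acid, 67.8 with bleomycin alone and 35.2 in control skin. Macrophage markers, 12 genes, were at -0.22 with EHP-101, 0.11, 0.27 and -0.22 with ajulemic acid, 0.13 with bleomycin alone and 0.05 in control skin. The 8 fibroblast markers were at -0.31 with EHP-101, -0.23, 0.14 and -0.51 with ajulemic acid, 0.31 with bleomycin alone and 0.37 in control skin. Control was the highest library in the fibroblast markers, where it was the lowest in both sets of targets. The part of all these markers in the results was not tested.

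Type I targets, on the same scale, were at 0.11 with EHP-101, 0.18, 0.39 and -0.07 with ajulemic acid, 0.00 with bleomycin alone and -0.64 in control skin. Siglech, which marks plasmacytoid dendritic cells, the classic producers of type I interferon, was at 1.098 CPM in the EHP-101 library, 2.32, 1.95 and 1.15 CPM with ajulemic acid, 3.91 CPM with bleomycin alone and 3.94 CPM in control skin, so that it was not higher in any bleomycin-exposed library than in control. The whole list of plasmacytoid dendritic cell markers, 9 genes of which 8 were tested, was at -0.33 with EHP-101, 0.10, 0.28 and -0.19 with ajulemic acid, 0.51 with bleomycin alone and -0.26 in control skin. By this median, and unlike Siglech, the list was above control with bleomycin alone and in the 3 ajulemic acid libraries, and below it with EHP-101. Its summed CPM was 313 with EHP-101, 315 to 443 with ajulemic acid, 487 with bleomycin alone and 318 in control skin, and its part in the result was not tested.

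The neutrophil markers, 11 genes of which 7 were tested, were at -0.19 with EHP-101, -0.25, 0.32 and -0.39 with ajulemic acid, 0.51 with bleomycin alone and -0.42 in control skin. Their summed CPM was 17.4 with EHP-101, 19.6 to 29.9 with ajulemic acid, 39.0 with bleomycin alone and 13.8 in control skin. Control was the lowest library in this list, whose defining marker Ly6g was at 0 counts in all 6 libraries. Skeletal muscle markers, 9 genes, summed to 6288 CPM with EHP-101, 3108 to 6307 CPM with ajulemic acid, 7020 CPM with bleomycin alone and 2509 CPM in control skin, the lowest. Adipocyte markers, 7 genes, summed to 1077 CPM with EHP-101, 613 to 792 CPM with ajulemic acid, 563 CPM with bleomycin alone and 1642 CPM in control skin, the highest. The part of these 3 lists in the result was not tested.

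Keratinocyte markers, 9 genes, were at -0.24 with EHP-101, 0.25, 0.20 and -0.31 with ajulemic acid, 0.37 with bleomycin alone and -0.41 in control skin. Control was thus the lowest library in keratinocyte markers as well as in both sets of targets, and the part of keratinocyte content was not tested.

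**Figure D4:**
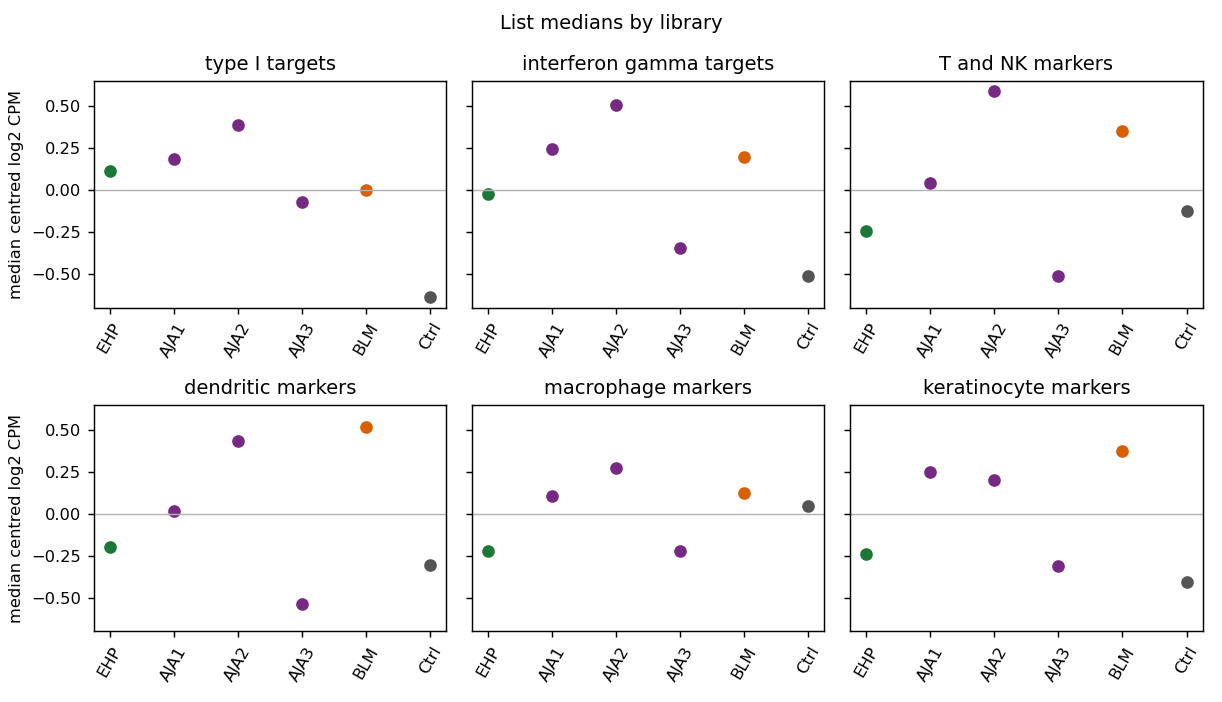
Medians of centred log2 CPM (log2 CPM minus the mean of each gene over the 6 libraries) for type I targets, interferon gamma targets and 4 lists of cell markers, by library. Control is the lowest library for both sets of targets, at -0.64 and -0.51, and for keratinocyte markers at -0.41, but not for the T and NK, dendritic or macrophage markers. The third ajulemic acid library is the lowest of its group in all 6 panels.

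Upstream of these genes, the interferons themselves were barely detected. Of 21 interferon genes, 11 had 0 counts in every library and 8 had 1 to 14 counts in all libraries together, too few to compare. Ifng, which encodes interferon gamma, had 1 count with EHP-101, 1, 2 and 1 with ajulemic acid, 0 with bleomycin alone and 3 in control skin, and Ifnb1 had 2 counts in the third ajulemic acid library and 0 elsewhere. The 2 interferon genes that passed the filter were Ifnk, a type I interferon of keratinocytes, and Ifnz. Ifnk was at 1.83 CPM in the EHP-101 library, 1.296, 1.83 and 1.95 CPM with ajulemic acid, 2.05 CPM with bleomycin alone and 0.854 CPM in control skin. Ifnz was at 1.53 CPM in the EHP-101 library, 1.91, 1.38 and 1.696 CPM with ajulemic acid, 1.93 CPM with bleomycin alone and 1.31 CPM in control skin. Both were lowest in control, but they rested on 13 to 39 counts in each library, and the log2 fold change of the bleomycin-exposed groups together was 1.11 (SE 0.47) for Ifnk and 0.37 (SE 0.42) for Ifnz, neither of which passed.

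Receptors and signalling components carry the signal to these targets. Of 19 such genes, 16 lay above control by log2 fold change in the bleomycin-exposed groups together (all genes 50.2%), 2 upward (all genes 3.89%) and 0 downward (all genes 3.92%) with p below 0.05 before adjustment, none passed by edgeR after adjustment, and the median was 0.21. Jak1, the kinase shared by both receptors, was at 181 CPM in the EHP-101 library, 212, 239 and 154 CPM with ajulemic acid, 236 CPM with bleomycin alone and 189 CPM in control skin. In control it lay within the range of the other libraries. Socs3, an inhibitor of cytokine receptor signalling, was at 22.5 CPM in the EHP-101 library, 25.2, 26.3 and 24.9 CPM with ajulemic acid, 31.6 CPM with bleomycin alone and 12.1 CPM in control skin, with a log2 fold change of 1.12 (SE 0.18) and adjusted p = 0.235 by edgeR.

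The 18 genes of nucleic acid sensing had a median log2 fold change of 0.31, with 14 positive (all genes 50.2%), and none passed. Samhd1, which degrades nucleotides, was at 58.8 CPM in the EHP-101 library, 80.7, 98.1 and 51.7 CPM with ajulemic acid, 77.8 CPM with bleomycin alone and 52.8 CPM in control skin. Tbk1, the kinase that activates interferon regulatory factors, was at 45.2 CPM in the EHP-101 library, 50.4, 55.8 and 44.8 CPM with ajulemic acid, 48.3 CPM with bleomycin alone and 48.3 CPM in control skin. Neither was separated from control. Trex1, which degrades cytosolic DNA, was at 15.99 CPM in the EHP-101 library and 15.8, 16.6 and 13.5 CPM with ajulemic acid. It was at 16.4 CPM with bleomycin alone and 10.2 CPM in control skin. All 5 bleomycin-exposed libraries lay above control (all genes 22.0%).

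Another 71 genes known to be induced by interferons, 66 of which passed the filter, were taken as a second look. Of these 51 lay above control by log2 fold change in the bleomycin-exposed groups together (all genes 50.2%). With p below 0.05 before adjustment 12 were higher (all genes 3.89%) and 0 lower (all genes 3.92%), and 8 were at least 2-fold higher (all genes 5.25%). None passed by edgeR, and the median was 0.31, below the 0.71 of the 43 listed genes. In CPM, 33 of the 66 were above control in all 5 bleomycin-exposed libraries (all genes 22.0%). B2m, the light chain of MHC class I, was at 408 CPM in the EHP-101 library, 467, 638 and 335 CPM with ajulemic acid, 557 CPM with bleomycin alone and 435 CPM in control skin. H2-K1, a heavy chain of MHC class I, was at 193 CPM in the EHP-101 library, 232, 251 and 156 CPM with ajulemic acid, 241 CPM with bleomycin alone and 169 CPM in control skin. In both, the third ajulemic acid library was below control. Ly6e, a membrane protein induced by type I interferon, was at 188 CPM in the EHP-101 library, 198, 195 and 173 CPM with ajulemic acid, 189 CPM with bleomycin alone and 113 CPM in control skin. Control was below the other 5 libraries, as in 22.0% of all genes tested, and its log2 fold change was 0.74 (SE 0.17) with adjusted p = 0.376 by edgeR.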

How the data were processed

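Per the labels' protocols, total RNA of frozen skin (300 ng) was made into stranded libraries depleted of ribosomal RNA, from which single ends of 50 bp were read. The submitters' processing notes name mm10, featureCounts 1.6.1, HISAT2 2.1.0, Trimmomatic 0.36 and DESeq2 1.20.0. The authors deposited raw counts per gene. How strand and multiply matching reads were handled in counting is not given in the sources used here. A second deposited table repeated these counts with 0 differences. It held 6 more sample columns, left out here.

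Counts of the 6 libraries were fitted in 1 model with edgeR 4.0.16 (R 4.3.3): filterByExpr with a minimum count of 10, TMM, robust quasi-likelihood tests (two-sided), Benjamini-Hochberg adjustment over 17377 genes and a threshold of 0.05, in 7 comparisons including the average of the 3 bleomycin-exposed groups against control. The common biological coefficient of variation was 0.267. CPM were computed here with TMM-scaled library sizes, and log2 CPM with a prior count of 3. Single libraries carry exact 95% Poisson intervals, which cover counting error only. The ajulemic acid libraries differed beyond sampling noise (chi-square per degree of freedom at least 35.0) and were all kept. Alternatives were DESeq2 1.42.0, limma 3.58.1, other scalings and filters, and leaving out libraries. The fit was also run on simulated data. The changes planted there were far larger than the median difference of the listed genes, so that run does not speak of differences of this size.

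The genes and lists were chosen with earlier results of these data known. Named with values in every library were the 2 genes of highest mean CPM in each role (3 in roles of 8 or more), those of smallest p in each comparison, and the pair Ifit3 and Ifit3b, and in the other lists the 2 of highest mean CPM and the 1 of smallest p. Others are said to be chosen after their values were seen, save Siglech, Ly6g, Ifng and Ifnb1, which were also named outside this rule. The values of 1 gene that this rule names in the list of receptors and signalling are not reported here.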

Additional observations from a re-analysis of the deposited data

How the results depend on the processing

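No paired analysis was possible because the groups share only replicate number 3, fewer than 2 numbers. The median log2 fold change of the 43 genes kept within the spread of the ajulemic acid libraries (SD 0.26) in all 63 alternative values. Not every setting could move it, since the medians were the same without the robust option. That spread is also wider than the medians between bleomycin-exposed groups. Without the second ajulemic acid library, the median for ajulemic acid changed sign against bleomycin alone (0.13 to -0.01) and against EHP-101 (0.12 to -0.05). The number of genes above control in every bleomycin-exposed library was 34 to 40 (39 as reported), over settings chosen after seeing the data. It was 37 with RLE size factors (all genes 20.6%). With library sizes without mitochondrial ribosomal RNA and no TMM it was 34 (all genes 16.0%). It was 40 without the third ajulemic acid library (all genes 27.1%). Leaving out a bleomycin-exposed library can only keep or raise this number, so those settings could not lower it. All settings used the same control library.

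The count of genes past an adjusted p of 0.05 moved more. Over all genes DESeq2 passed 120 for EHP-101, 276 for ajulemic acid, 165 for bleomycin alone and 250 for the 3 groups together against control, 10 for EHP-101 and 103 for ajulemic acid against bleomycin alone, and 64 for ajulemic acid against EHP-101, where edgeR passed 6 for ajulemic acid against control and 0 elsewhere. limma passed 0 for ajulemic acid against control. With no filter on low counts edgeR passed 153 for ajulemic acid and 15 for the 3 groups together against control, 41 for ajulemic acid against bleomycin alone and 16 against EHP-101. Leaving out each ajulemic acid library gave 0 to 91, 0 to 367, 0 to 177 and 0 to 380 genes against control (EHP-101, ajulemic acid, bleomycin alone, together), 0 to 92 for ajulemic acid against bleomycin alone and 0 to 67 against EHP-101.

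Of the 43 listed genes, DESeq2 passed 2 each for ajulemic acid, for bleomycin alone and for the 3 groups together against control (Oas3 and Ifi44), and with no filter edgeR passed 1 for ajulemic acid (Oas3). Leaving out each ajulemic acid library gave 0 to 4 for ajulemic acid, 0 to 1 for bleomycin alone and 0 to 3 for the 3 groups together, and the genes passed only without the third library. At a limit of 1.5-fold in place of 2-fold, the genes past it in either direction numbered 27, 34, 28 and 28 against control (in that order of groups, all genes 20.8%, 18.4%, 29.1% and 20.8%), 5 for EHP-101 (all genes 20.4%) and 3 for ajulemic acid (17.5%) against bleomycin alone, and 5 for ajulemic acid against EHP-101 (11.55%). The causes were not tested. The smallest count of a listed gene was 17, and 3 of the 4 groups had 1 library, so most differences carry no replicate error of their own.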
